A study of Mus musculus with 6 samples.

Results

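Glucose entry and the first committed steps of glycolysis were followed through 10 mouse genes: the glucose transporter gene Slc2a1, the hexokinase genes Hk1, Hk2 and Hk3, the phosphofructokinase genes Pfkl, Pfkm and Pfkp, and the genes Pfkfb2, Pfkfb3 and Pfkfb4 of the bifunctional PFKFB enzymes. They were taken by symbol from a table of 21878 genes, and all 10 were found and passed the filter on low counts. The libraries came from macrophages grown out of C57BL/6 wild-type bone marrow in 50 ng/mL of macrophage colony-stimulating factor. All cultures had first shared medium for 48 h with cells of the mouse lung carcinoma line LLC, through a transwell membrane with 0.4 µm pores. The 3 β-elemene libraries came from macrophages then given the plant sesquiterpene β-elemene at 100 µg/mL for 24 h, and the 3 PBS libraries from macrophages given an equal amount of the buffer PBS (phosphate-buffered saline) over the same 24 h. Age, sex and the number of mice are not given in the labels, no culture without LLC cells was analysed here, and nothing says that replicates came from separate cultures, so p-values cover only library-to-library spread, part or all of which may be technical.

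Glucose enters most cells by facilitated diffusion through GLUT1, the product of Slc2a1, and is trapped inside when a hexokinase phosphorylates it. Phosphofructokinase then catalyses the committed step of glycolysis, and its strongest allosteric activator, fructose 2,6-bisphosphate, is made and broken down by the PFKFB enzymes. The product of Pfkfb3 favours synthesis of this activator over its breakdown. Macrophages activated by bacterial products or interferon are known to raise glucose uptake and lactate output. The data here are transcript levels, and neither enzyme activity nor metabolic flux was measured.

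Total gene counts were 18916844 to 20550078 in the β-elemene libraries and 20524959 to 20729887 in the PBS libraries. The 10 genes together accounted for 0.263% to 0.287% of counts in β-elemene libraries and 0.165% to 0.171% in PBS libraries. Levels below are counts scaled to library size (CPM) after TMM scaling, a correction of library size for the make-up of each library, and fold changes are β-elemene over PBS. The macrophage identity of the cultures was seen in all 10 markers tested, led by Lyz2, whose summed level was 17376 to 17929 CPM in β-elemene libraries and 13898 to 14901 CPM in PBS libraries, although Csf1r and Itgam were among those lower with β-elemene (log2 fold changes -1.53 and -0.26). The 7 epithelial markers that LLC cells could bring summed to 0.0615 to 0.195 CPM in β-elemene libraries and 0 to 0.194 CPM in PBS libraries, with Cldn7 the highest over all libraries and Krt19 and Cldn4 without a count in any. Neutrophil markers summed to 34.6 to 50.3 CPM with β-elemene and 21.7 to 23.6 CPM with PBS. Of the 7 tested, 4 were higher and 1 lower with β-elemene. Mmp8 was the most abundant over all libraries but not past the threshold. S100a8 was higher, at 15.8 CPM with β-elemene and 4.03 CPM with PBS. Mpo was lower, at 0.145 CPM with β-elemene and 1.54 CPM with PBS. Ly6g, not tested, averaged 0.0830 CPM with β-elemene and 0 CPM with PBS, and Elane, not tested, 0.0204 and 0.272 CPM. Erythroid and megakaryocyte markers summed to 23.6 to 34.9 CPM with β-elemene and 74.4 to 97 CPM with PBS, most of it Pf4, while Hbb-bt had no count in any library. Dendritic cell markers summed to 923 to 1077 CPM with β-elemene and 1227 to 1313 CPM with PBS. Nearly all of this was Itgax, at 988 CPM with β-elemene and 1250 CPM with PBS on average. Of the scarce others tested, Clec9a was higher, at 1.56 CPM with β-elemene and 0.220 CPM with PBS. Zbtb46 (0.691 and 3.26 CPM) and Cd209a (0.146 and 4.17 CPM) were lower. Fibroblast markers summed to 18.3 to 25.4 CPM with β-elemene and 15.3 to 19.6 CPM with PBS. Within the fibroblast list Pdgfrb was higher, at 18.1 CPM with β-elemene and 2.18 CPM with PBS, while Col1a1, Col1a2 and Col3a1 were lower, at 0.0409 to 0.698 CPM with β-elemene and 3.15 to 4.87 CPM with PBS on average. T and NK cell markers, led by Cd4, summed to 5.66 to 7.97 CPM with β-elemene and 5.34 to 7.15 CPM with PBS, and B cell markers, led by Cd79b, to 0.984 to 1.90 CPM with β-elemene and 1.94 to 4.45 CPM with PBS. The part of these marker levels in the results was not tested, and in bulk libraries a change in the share of a cell type cannot be told apart from a change of RNA per cell.

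All 10 genes differed between the groups (edgeR quasi-likelihood test, Benjamini-Hochberg adjusted p under 0.05 over 11459 genes), 6 higher and 4 lower with β-elemene. This is read against a background in which 76.7% of all genes tested passed, 36.6% higher and 40.2% lower, so passing by itself says little about these genes. The groups did not overlap for any of the 10 genes, where 79.9% of all genes tested did not overlap. The median log2 fold change of the 10 genes was 0.61, against -0.06 over all genes tested. The genes differed from one another in direction, also within the hexokinase, phosphofructokinase and PFKFB steps. Slc2a1, Hk1, Hk3, Pfkl, Pfkp and Pfkfb3 were higher with β-elemene, and Hk2, Pfkm, Pfkfb2 and Pfkfb4 were lower. With library size alone as the scaling, Slc2a1 was at 0.14 and Pfkl turned to -0.19 on the log2 scale, neither past the threshold. Pfkm missed the threshold in 10 of 14 alternatives, so the split in direction among phosphofructokinases rests on a weak call.

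**Figure D1:**
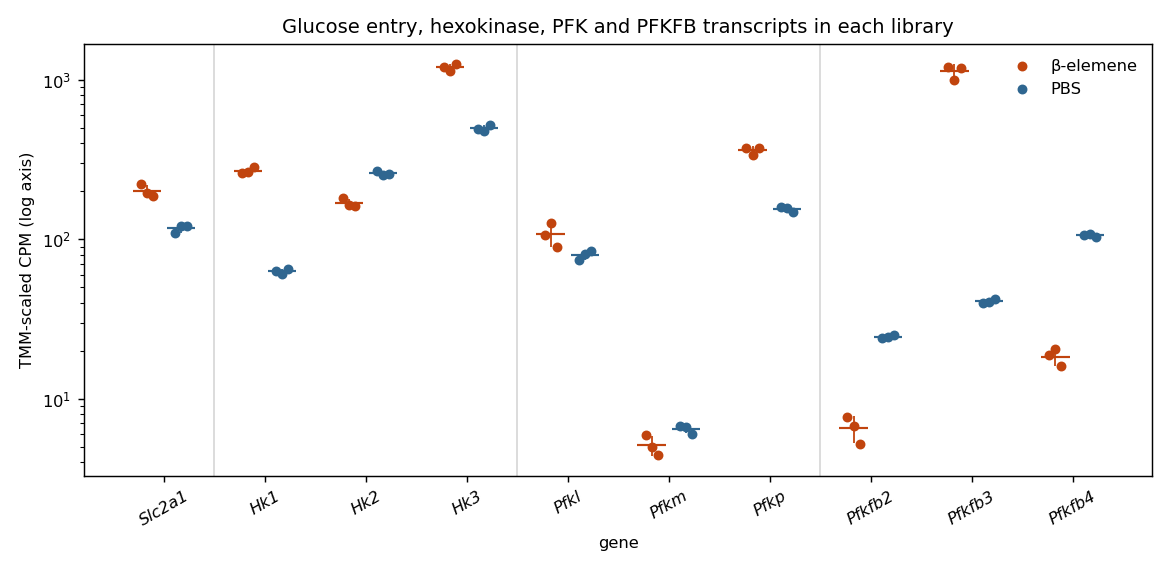
TMM-scaled CPM (log axis) of each of the 10 genes in the 3 β-elemene and 3 PBS libraries; points are libraries, horizontal lines are group means and vertical lines are 1 SD. Pfkfb3 stands at 1000.4 to 1207 CPM with β-elemene and 39.6 to 42.3 CPM with PBS, while Pfkfb4 and Pfkfb2 lie the other way round.

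Pfkfb3 and Pfkfb4 had the widest differences of the 10 genes, and promoter windows of the PFKFB genes are shown first because these genes moved in opposite directions. The windows reach from 250 bases before to 50 bases after an annotated start site (RefSeq, GRCm38.p6), and all 10 genes had at least 1 window, 17 in all. Capitals mark the letters ACGTG on either strand, a form of the core of the hypoxia response element that HIF factors bind. The other form of this core, GCGTG, was not searched or marked. Where ACGTG lies inside the palindrome CACGTG, the whole palindrome is in capitals because both strands match. This palindrome is an E-box that MYC and the glucose-sensing factor ChREBP can bind. Pfkfb3 has 2 annotated start sites, both on the minus strand of chromosome 2, with windows at chr2:11553880-11554179 (first) and chr2:11502041-11502340 (second). The window of Pfkfb2 is its first of 3, on the minus strand at chr1:130715772-130716071. The window of Pfkfb4 is on the plus strand at chr9:108991652-108991951.
Pfkfb3, first window: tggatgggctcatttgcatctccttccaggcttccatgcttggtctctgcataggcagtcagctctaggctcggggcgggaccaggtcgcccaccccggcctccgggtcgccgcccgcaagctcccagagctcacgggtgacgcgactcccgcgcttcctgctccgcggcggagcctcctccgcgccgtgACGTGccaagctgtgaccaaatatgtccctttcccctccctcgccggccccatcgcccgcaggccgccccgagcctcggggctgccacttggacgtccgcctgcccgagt
Pfkfb3, second window: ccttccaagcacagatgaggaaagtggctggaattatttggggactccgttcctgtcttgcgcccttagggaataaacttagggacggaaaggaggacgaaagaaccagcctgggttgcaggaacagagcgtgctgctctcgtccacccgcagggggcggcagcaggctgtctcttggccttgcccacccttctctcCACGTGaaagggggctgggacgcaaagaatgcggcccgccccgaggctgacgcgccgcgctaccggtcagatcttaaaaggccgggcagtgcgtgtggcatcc
Pfkfb2, first window: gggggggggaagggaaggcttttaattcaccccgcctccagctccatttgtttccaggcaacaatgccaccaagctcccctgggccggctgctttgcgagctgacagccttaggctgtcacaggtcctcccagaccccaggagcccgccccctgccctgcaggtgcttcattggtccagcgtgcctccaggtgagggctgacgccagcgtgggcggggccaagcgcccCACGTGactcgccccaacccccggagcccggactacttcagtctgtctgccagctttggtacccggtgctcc
Pfkfb4: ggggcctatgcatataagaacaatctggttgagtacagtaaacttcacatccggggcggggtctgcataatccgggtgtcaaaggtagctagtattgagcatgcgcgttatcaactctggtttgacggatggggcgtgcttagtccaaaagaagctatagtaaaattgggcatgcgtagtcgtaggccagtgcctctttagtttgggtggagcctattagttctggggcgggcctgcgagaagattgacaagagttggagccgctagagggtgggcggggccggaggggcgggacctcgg

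Both Pfkfb3 windows and the printed Pfkfb2 window held ACGTG, and the Pfkfb4 window did not. Of the Pfkfb2 windows not printed, the second held no ACGTG and the third held 1 match. The letters GCGTG do occur in the printed windows of Pfkfb4 and Pfkfb2 and in the second of Pfkfb3. The lack of a match in Pfkfb4 thus holds for ACGTG only. Over the 10 genes, 10 of 17 windows held ACGTG, where 19.6% of all 32841 windows of this length did. The 17 windows are not independent, since Pfkm gave 4 and Pfkfb2 gave 3, and some of these overlap. All windows were not matched to them in base composition, so no excess is read from this. The 7 genes with an ACGTG match were Slc2a1, Hk1, Hk2, Hk3, Pfkm, Pfkfb2 and Pfkfb3, which are both higher and lower with β-elemene. CACGTG lay in 3 of the 17 windows, those of Pfkfb3 and Pfkfb2 printed above and 1 of Pfkm, against 7.15% of all windows. A κB pattern and an interferon-response pattern were searched too, and lay in 0 of the 17 windows on either strand, against 1.63% and 3.44% of all windows. A match in so short a window is a description of letters and not a binding site.

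Pfkfb3 (chromosome 2, 11471430 to 11554071, GRCm38.p6) encodes the inducible, kinase-dominant form of the bifunctional enzyme. It stood at 1207, 1000.4 and 1193 CPM in β-elemene replicates 1, 2 and 3, against 39.6, 40.2 and 42.3 CPM in PBS replicates 1, 2 and 3. The lowest β-elemene library, replicate 2, still lay far above the highest PBS library. This was 27.8-fold higher (log2 scale 4.80, SE 0.09, edgeR adjusted p = 4.21e-14), and 2.50% of all genes tested had a larger change in either direction. It lay between 4.16 and 4.91 under every alternative tried.

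Pfkfb4 (chromosome 9, 108988272 to 109032236) encodes a form first described in testis and later in tumour cells. It stood at 18.8, 20.4 and 15.9 CPM in the 3 β-elemene libraries and 107, 108 and 104 CPM in the 3 PBS libraries. Its log2 fold change was -2.53 (SE 0.08, edgeR adjusted p = 5.07e-12), that is, 5.78-fold lower with β-elemene. Pfkfb2 (chromosome 1, 130689043 to 130729253), the form best known from heart, stood at 7.63, 6.77 and 5.21 CPM with β-elemene and 24.0, 24.2 and 25.1 CPM with PBS. Its log2 fold change was -1.90 (SE 0.12, edgeR adjusted p = 5.18e-09), that is, 3.74-fold lower. Both genes were several times below their PBS level in each β-elemene library. Exons of Pfkfb2 share 154 bases with Yod1 on the opposite strand, and Yod1 itself stood at 5.70 ± 0.764 CPM with β-elemene and 6.18 ± 0.654 CPM with PBS (SD, n = 3 each; edgeR adjusted p = 0.50). Pfkfb2 also shares 1262 exon bases on the same strand with Gm29427, which was not analysed here, so the Pfkfb2 level is uncertain to that extent.

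The make-up of each step was then compared inside each library, as the share of each gene in the summed counts per kilobase of its step, taking the longest annotated protein-coding transcript as the length (GENCODE vM21, GRCm38). Such a share does not depend on how libraries are scaled to one another. With 3 libraries per group the exact two-sided permutation test cannot go below p = 0.10, and every share named here reached that smallest value. Pfkfb3 held 97.2%, 96.6% and 97.7% of the PFKFB sum in the β-elemene libraries and 18.6%, 18.7% and 19.9% in the PBS libraries. Pfkfb4 held 2.2% ± 0.465 with β-elemene and 68.5% ± 1.09 with PBS, and Pfkfb2 held 0.613% ± 0.131 with β-elemene and 12.4% ± 0.349 with PBS (SD, n = 3 each). The PFKFB pool was thus mostly Pfkfb3 in the β-elemene libraries and mostly Pfkfb4 in the PBS libraries. Counted directly, there were 64.2, 49.1 and 74.8 Pfkfb3 reads for each Pfkfb4 read in the β-elemene libraries, against 0.371, 0.373 and 0.408 in the PBS libraries. The summed PFKFB level per kilobase was 243 ± 23.6 CPM per kb with β-elemene and 44.4 ± 0.359 CPM per kb with PBS, a ratio of 5.47, or 4.37 with library size alone. Pfkfb1, the liver form and the remaining member of the family, stood at 1.73 ± 0.566 CPM with β-elemene and 1.59 ± 0.0979 CPM with PBS (edgeR adjusted p = 0.70).

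**Figure D2:**
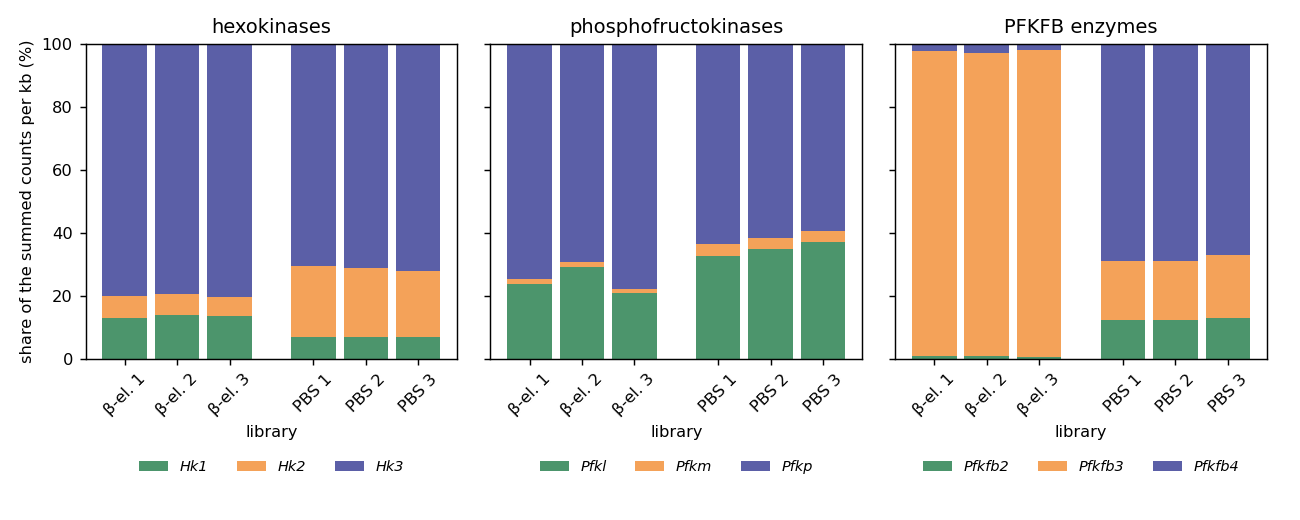
Share (%) of each gene in the summed counts per kilobase of its enzyme step, per library, for hexokinases (left), phosphofructokinases (middle) and PFKFB enzymes (right); each bar is 1 library and sums to the whole. Pfkfb3 takes 96.6% to 97.7% of the PFKFB sum in β-elemene libraries and 18.6% to 19.9% in PBS libraries, and Hk3 is the main hexokinase in all 6 libraries.

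Hexokinases moved apart as well. Hk3 (chromosome 13, 55005985 to 55021475), the hexokinase characteristic of myeloid cells, was the most abundant of the 10 genes per kilobase in both groups. It stood at 1205, 1128 and 1257 CPM in the β-elemene libraries and 490, 478 and 521 CPM in the PBS libraries, with no overlap. This was 2.41-fold higher (log2 scale 1.27, SE 0.07, edgeR adjusted p = 7.68e-10). Its exons share 34 bases with Unc5a on the opposite strand, which was itself at 0.0422 CPM on average with β-elemene and 0 with PBS.

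Hk1 (chromosome 10, 62268855 to 62379920), the broadly expressed hexokinase that can bind the outer mitochondrial membrane, stood at 261, 262 and 283 CPM with β-elemene and 63.4, 60.8 and 64.6 CPM with PBS. Its log2 fold change was 2.10 (SE 0.06, edgeR adjusted p = 1.33e-12), or 4.27-fold. Hk2 (chromosome 6, 82725025 to 82774454), the inducible hexokinase of muscle, fat and many tumours, which also binds mitochondria, went the other way. It stood at 180, 163 and 162 CPM with β-elemene and 269, 253 and 258 CPM with PBS, which is 1.54-fold lower (log2 scale -0.62, SE 0.06, edgeR adjusted p = 4.15e-07). Each β-elemene library lay below each PBS library for Hk2, and above each for Hk1. An antisense gene, Hk1os, shares 157 exon bases with Hk1 and was not analysed here, so reads of that stretch cannot be assigned if strand was not used in counting.

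Within the hexokinase sum, Hk2 held 6.58% ± 0.479 in β-elemene libraries and 21.8% ± 0.843 in PBS libraries. Hk1 held 13.5% ± 0.437 with β-elemene and 6.81% ± 0.0610 with PBS, and Hk3 held 79.9% ± 0.467 with β-elemene and 71.3% ± 0.904 with PBS (SD, n = 3 each). The count of Hk1 was 1.45, 1.61 and 1.75 times that of Hk2 in the β-elemene libraries and 0.236, 0.240 and 0.25 times in the PBS libraries, so the order of these genes by count was inverted. The summed hexokinase level was 465 ± 22.6 CPM per kb with β-elemene and 216 ± 7.65 CPM per kb with PBS, a ratio of 2.15 that was 1.28 with library size alone. The hexokinase-domain gene Hkdc1 had no count in any library.

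Among the phosphofructokinases, Pfkp (chromosome 13, 6579874 to 6649060), the platelet-type subunit, was the main transcript. It stood at 375, 336 and 372 CPM with β-elemene and 159, 158 and 149 CPM with PBS, which is 2.32-fold higher (log2 scale 1.22, SE 0.06, edgeR adjusted p = 5.14e-10), and every β-elemene library was above every PBS library. Exons of Pfkp share 748 bases with Pitrm1 on the opposite strand, and Pitrm1 was at 73.2 ± 4.25 CPM with β-elemene and 46.8 ± 1.39 CPM with PBS (edgeR adjusted p = 5.62e-07), so its level moved with that of Pfkp. The part of any shared reads was not tested.

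Pfkl (chromosome 10, 77986947 to 78009807), the liver-type subunit, stood at 107, 127 and 89.3 CPM with β-elemene and 73.6, 80.3 and 83.9 CPM with PBS. The groups lay close, with β-elemene replicate 3 just above PBS replicate 3. The difference of 0.44 on the log2 scale (SE 0.12, edgeR adjusted p = 0.0082) did not pass with the upper quartile (0.13, adjusted p = 0.326) and turned to -0.19 (adjusted p = 0.165) with library size alone. Pfkm (chromosome 15, 98092589 to 98132447), the muscle-type subunit, was scarce. It stood at 5.90, 5.01 and 4.41 CPM with β-elemene, from 96, 77 and 72 counts, and 6.74, 6.64 and 6.04 CPM with PBS, from 174, 171 and 155 counts. The difference of -0.34 on the log2 scale (SE 0.15, edgeR adjusted p = 0.049) lay at the threshold and missed it in 10 of 14 alternatives, among them leaving out β-elemene replicate 3 (-0.23, adjusted p = 0.20). Its exons share 18 bases with Senp1 on the opposite strand, which was at 40.1 CPM with β-elemene and 23.7 CPM with PBS, and 341 bases with Gm26513, not analysed here.

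Within the phosphofructokinase sum, Pfkp held 74.7%, 69.4% and 77.9% in the β-elemene libraries and 63.5%, 61.5% and 59.4% in the PBS libraries. Pfkl held 24.5% ± 4.22 with β-elemene and 34.8% ± 2.27 with PBS, and Pfkm held 1.5% ± 0.181 with β-elemene and 3.69% ± 0.204 with PBS (SD, n = 3 each). The shares did not overlap between groups for any of the 3 subunits, but those of Pfkl and Pfkp varied more among the β-elemene libraries than any hexokinase share. The summed level was 118 ± 3.05 CPM per kb with β-elemene and 61.0 ± 0.815 CPM per kb with PBS, a ratio of 1.93 that was 1.26 with library size alone.

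Slc2a1 (chromosome 4, 119108745 to 119137330), the gene of the basal glucose transporter, stood at 222, 194 and 188 CPM in the β-elemene libraries and 109, 120 and 121 CPM in the PBS libraries. With TMM this was 1.72-fold higher (log2 scale 0.78, SE 0.07, edgeR adjusted p = 2.90e-07). The call rests on the scaling, since the raw counts of 3604, 2977 and 3060 with β-elemene and 2817, 3098 and 3111 with PBS overlap, and with library size alone the log2 fold change was 0.14 (adjusted p = 0.0619). Among the other genes listed from the glucose transporter families, not all of which need carry glucose, Slc2a6, a transporter of lysosomal membranes, was the abundant one. It rose with β-elemene, at 1246 ± 43.3 CPM against 135 ± 36.4 CPM with PBS (log2 fold change 3.20, SE 0.20, edgeR adjusted p = 7.88e-06). Slc2a3, Slc2a8 and Slc2a9 were lower, with log2 fold changes of -1.84, -1.02 and -0.78, and the remaining 8 of the 12 transporters listed did not pass the filter on low counts.

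The order of the genes by level per kilobase changed between groups. With β-elemene it ran from Hk3 (372 ± 20.2 CPM per kb) through Pfkfb3 (236 ± 24.1), Pfkp (87.1 ± 5.14), Hk1 (62.9 ± 2.92), Slc2a1 (61.7 ± 5.56), Hk2 (30.6 ± 1.85), Pfkl (28.9 ± 5.05), Pfkfb4 (5.27 ± 0.645) and Pfkm (1.78 ± 0.260) to Pfkfb2 (1.48 ± 0.277). In the PBS libraries it ran from Hk3 (154 ± 6.93) through Hk2 (47.2 ± 1.46), Pfkp (37.5 ± 1.34), Slc2a1 (35.9 ± 2.08), Pfkfb4 (30.4 ± 0.665), Pfkl (21.3 ± 1.4), Hk1 (14.7 ± 0.455), Pfkfb3 (8.48 ± 0.291) and Pfkfb2 (5.52 ± 0.129) to Pfkm (2.25 ± 0.131; SD, n = 3 per group). Neighbours whose libraries overlapped were Hk1 and Slc2a1, Hk2 and Pfkl, and Pfkm and Pfkfb2 with β-elemene, and Pfkp and Slc2a1 with PBS. Pfkfb3 was 2nd of the 10 genes with β-elemene and 8th with PBS, Hk2 was 6th with β-elemene and 2nd with PBS, and Pfkfb4 was 8th with β-elemene and 5th with PBS.

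How far these directions rest on the scaling was checked with 3 other scalings. TMM factors were 0.794 to 0.812 in β-elemene libraries and 1.24 to 1.26 in PBS libraries, so leaving them out lowers every fold change. Over all genes, the median log2 fold change stood at -0.06 with TMM, -0.02 with the median of ratios, -0.37 with the upper quartile and -0.70 with library size alone. Hk1, Hk3, Pfkp and Pfkfb3 were higher, and Hk2, Pfkfb2 and Pfkfb4 lower, past the threshold in each of the 4 scalings. Slc2a1, Pfkl and Pfkm were the genes whose call depended on it.

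**Figure D3:**
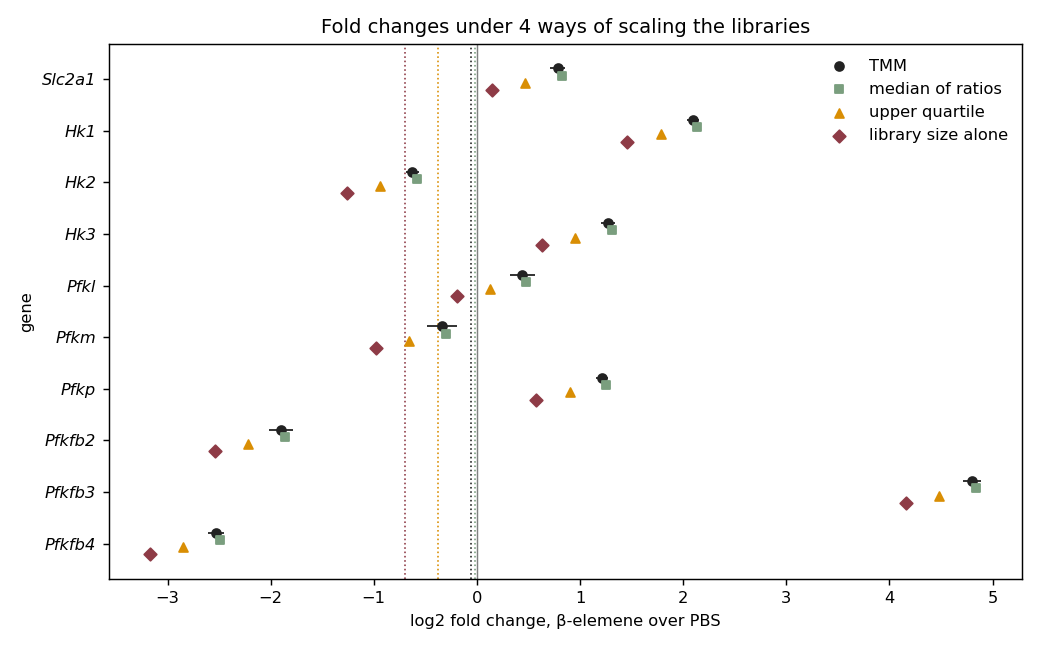
log2 fold change (β-elemene over PBS) of each gene under TMM, median-of-ratios, upper-quartile and library-size scaling; bars on the TMM points are 1 SE and dotted lines mark the median of all genes under each scaling. Pfkl runs from 0.48 with the median of ratios to -0.19 with library size alone, while 7 genes keep their side of zero and their call throughout.

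The rest of the glucose pathway was described through 8 gene lists with 76 tested genes, of which 25 were higher and 34 lower, with a median log2 fold change of -0.07. Those counts were 12 higher and 45 lower with the upper quartile, and 5 higher and 61 lower with library size alone. Among enzymes that share or oppose the steps above, 0 of 6 tested were higher, 3 were lower and 3 did not pass, of which Tigar was higher with the median of ratios (log2 scale 0.27). Slc37a4, which carries glucose 6-phosphate into the endoplasmic reticulum, the phosphatase gene G6pc3 and the ADP-dependent glucose kinase gene Adpgk fell, with log2 fold changes of -1.46, -0.65 and -0.91. Tigar, which breaks down fructose 2,6-bisphosphate, stood at 10.9 ± 1.47 CPM with β-elemene and 9.31 ± 0.159 CPM with PBS (edgeR adjusted p = 0.0905; lower past the threshold, at -0.41 on the log2 scale, with library size alone), and Fbp1, which reverses the phosphofructokinase step, stood below 1 CPM on average in both groups. These are genes of the same substrate cycles as the 10 genes.

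The other glycolytic steps, from glucose 6-phosphate isomerase to pyruvate kinase, were mixed. Of their 11 genes tested, 3 were higher, 3 lower and 5 did not pass, with a median log2 fold change of -0.07, and with library size alone 0 were higher and 11 lower. Pkm, the most abundant, stood at 1308 ± 41.8 CPM with β-elemene and 1737 ± 12 CPM with PBS (log2 fold change -0.41, SE 0.06, edgeR adjusted p = 3.58e-05). Gpi1, the isomerase that acts between hexokinase and phosphofructokinase, fell by 0.41 and the enolase gene Eno3 by 1.35 on the log2 scale, and Pgk1 and Eno2 were at 0.43 and 0.32, which turn to -0.21 and -0.31 with library size alone. Gapdh stood at only 21.1 CPM with β-elemene and 19.3 CPM with PBS, and a gene with so many pseudogene copies is uncertain in such counts. In the lactate list 3 of 7 tested were higher and 2 lower, and with library size alone 0 were higher and 5 lower. Slc16a3 and Slc16a1, which carry lactate, and their chaperone gene Bsg had log2 fold changes of 0.62, 0.60 and 0.30 that turn to -0.02, -0.04 and -0.34 with library size alone. Ldha stood at 900 ± 28.2 CPM with β-elemene and 896 ± 7.49 CPM with PBS (edgeR adjusted p = 0.94), but it was lower past the threshold with the upper quartile (-0.31) and with library size alone (-0.63 on the log2 scale), and Slc16a7 fell by 0.69 on the log2 scale.

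The branches off glucose 6-phosphate and pyruvate were mixed. In the pentose phosphate list 3 of 11 tested genes were higher and 6 lower (1 and 9 with library size alone), with Prps1, Shpk and H6pd at -3.56, -2.05 and -1.63, Rpe at 1.32, and Pgd, the most abundant, at 0.59 (-0.05 with library size alone). In the glycogen list 6 of 10 were higher and 4 lower, which turned to 3 and 4 with the upper quartile and 1 and 7 with library size alone, with the branching enzyme gene Gbe1 at 1.62, Pygl and Gys1 at -0.94 and -0.84, and Ugp2, the most abundant, at 0.42 (-0.21 with library size alone). In the pyruvate list 4 of 13 were higher and 6 lower (1 and 10 with library size alone). The pyruvate dehydrogenase kinase genes Pdk2 and Pdk1 were at -2.73 and -1.48, and Pcx at -1.15. Pdk3 was at 0.85 and Dld at 0.51, which turn to 0.21 and -0.13, neither past the threshold, with library size alone.

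Genes that regulate glucose uptake or the PFKFB genes were mixed too, with 5 of 14 tested higher and 7 lower (1 and 12 with library size alone). Hif1a, the gene of the oxygen-regulated HIF-1α subunit, stood at 333 ± 41.9 CPM with β-elemene and 144 ± 4.94 CPM with PBS (log2 fold change 1.21, SE 0.08, edgeR adjusted p = 4.69e-08), and its relative Epas1 stood at 1.27 ± 0.564 CPM with β-elemene and 8.25 ± 1.35 CPM with PBS (log2 fold change -2.69). Myc fell to 3.56 ± 0.655 CPM with β-elemene, against 37.5 ± 1.43 CPM with PBS (log2 fold change -3.39). Prkag2, a regulatory subunit of the energy sensor AMPK, was at -3.93, and Txnip, which lowers glucose uptake by GLUT1 and was the most abundant gene of the list over all libraries, was at -0.41. Their part in the levels of the 10 genes was not tested.

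**Figure D4:**
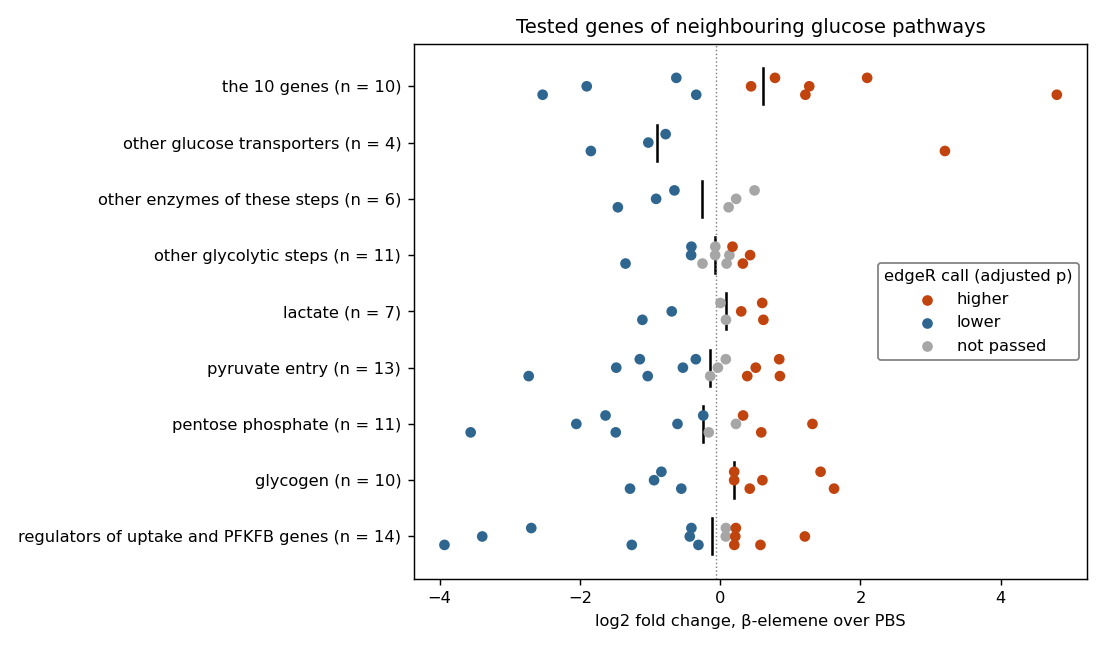
log2 fold change (β-elemene over PBS, TMM scaling) of the 10 genes and of the tested genes of 8 neighbouring lists; each point is a gene, coloured by its edgeR call, black lines are list medians and the dotted line is the median of all genes. The 10 genes reach from -2.53 to 4.80, and the 11 genes of other glycolytic steps from -1.35 to 0.43, where counts of higher and lower genes turn with the scaling.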

How the data were processed

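Raw read counts, 1 column for each of the 6 libraries, are the values the authors deposited; column totals differ and every value is whole. Stranded poly(A) kits were used on RNA of good integrity, per the labels' protocols. The aligner HISAT2 2.2.1.0 is listed, beside GRCm38.p6 and mm10 as builds, per the submitters' processing notes. How reads were counted per gene, and whether by strand, is not given in the sources used here, so reads of antisense or near-identical genes may have been shared or dropped. In the table of 21878 genes, 27 symbols altered by a spreadsheet were restored through their gene identifiers. Sample titles gave groups and replicate numbers; library names carry M1 for β-elemene and M2 for PBS, which no label explains.

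Genes passing filterByExpr (minimum count 10, minimum total 15) numbered 11459. They were scaled by TMM and tested in edgeR 4.0.16 (R 4.3.3) with robust quasi-likelihood dispersions and group as the only term, leaving 4 residual degrees of freedom. Calls used Benjamini-Hochberg adjusted p under 0.05 over all of them, and each SE came from the fold change and its F statistic. At these depths 3 counts, the limit that a count of 0 allows, equal 0.116 to 0.195 CPM per library, which covers counting error only. Replicates differed beyond sampling noise (chi-square per degree of freedom 3.70 to 13.2). The fit was tested on simulated data.

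The 10 genes, pathway lists and markers were chosen with earlier results of these data known, so lists are described by counts and medians without a test. In each pathway list, the passing genes of at least 1 CPM on average with the 3 largest changes, 1 of the opposite direction, and the most abundant gene over all libraries were named, and in each marker list the most abundant, and some genes are not reported here. Tigar, Fbp1, Pfkfb1, Hkdc1, Gapdh, the overlapping genes and the other markers were named after their values were seen. Alternatives were 3 scalings, 2 filters, DESeq2 1.42.0, limma-voom (limma 3.58.1), a replicate block and leaving out each library; for shares, counts not divided by length and, chosen after seeing the data, division by the length of all exons.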

Additional observations from a re-analysis of the deposited data

How the results depend on the processing

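Of 140 fold changes refitted for the 10 genes under 14 alternatives, 127 kept their direction and their side of the threshold, and 7 genes did so under every alternative. Slc2a1 did not pass with library size alone (0.14). Pfkl did not pass with the upper quartile (0.13) and turned to -0.19 with library size alone. Pfkm did not pass with the median of ratios (-0.30), no filter (-0.35), DESeq2 (-0.30), limma-voom (-0.35) or a replicate block (-0.35), and ranged from -0.44 to -0.23 when 1 library was left out, missing the threshold without any library but β-elemene replicate 1 (edgeR adjusted p = 0.0565 to 0.20). The cause was not tested. Over all genes, library size alone gave 2166 higher and 8003 lower against 4189 and 4602, and over the pathway lists 5 and 61 against 25 and 34, with 12 higher under the upper quartile. All 81 share settings kept their direction, and dividing by the length of all exons moved the difference in the Hk1 share to 4.22 percentage points against 6.71, and in the Pfkm share to -4.21 against -2.18.

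No label says whether the shared replicate numbers pair the libraries. Deviations from the group means correlated at -0.03, 0.06 and 0.02 for replicates 1, 2 and 3. These values show no sign of pairing, but with 3 libraries per group they cannot exclude it. With the replicate block, 6 of the 10 genes were higher and 3 lower, and the exact sign-flip test on shares gave p = 0.25, the smallest it allows with 3 pairs. The Pfkm values rest on 72 to 174 counts per library.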
